A study of Mus musculus with 9 samples.

Results

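Expression of the genes that govern the cyclin D and CDK4/6 step of the cell cycle was measured in a mouse model of childhood ependymoma and in control brain. The set held 10 genes, Ccnd1, Ccnd2, Ccnd3, Cdk4, Cdk6, Rb1, Cdkn2a, Cdkn2b, Cdkn2c and Cdkn1b, found by their symbols among the 32285 mouse genes of the count matrices, and all 10 were present. Tumors came from 5 EP ZFTA-RELA mice (NestinCreERT2;Fus1), in which a conditional ZFTA-RELA fusion allele at Rosa26 is recombined by Nestin-CreERT2 in embryonic radial glia. Controls were 4 brains of NestinCreERT2;TdT mice, which carry the same Cre driver and a TdTomato reporter but no fusion. Mice of both groups were 6 to 8 weeks old. Tissue was dissociated, enriched on Percoll and sorted with DAPI and anti-Ter119, the choroid plexus having been dissected away, so the sorted cells hold tumor, immune, vascular and neighboring brain cells together. Each library is 1 mouse, read as droplet single-cell RNA-seq (10x, 5′ end). Nothing in the labels says whether the mice are littermates, so p-values measure the spread between these mice.

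D-type cyclins bind and activate the kinases CDK4 and CDK6, and the active complexes phosphorylate the retinoblastoma protein, which otherwise holds E2F transcription factors in check and keeps cells from entering S phase. The INK4 proteins, encoded by Cdkn2a, Cdkn2b and Cdkn2c in this set, bind CDK4 and CDK6 and block their pairing with cyclin D, whereas p27, encoded by Cdkn1b, binds cyclin-kinase complexes. In the developing brain Ccnd2 is the D-type cyclin of dividing neural progenitors, Ccnd1 marks ventricular progenitors and oligodendrocyte precursors, and loss of CDKN2A is a known event in human supratentorial ependymoma.

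After filtering, 20405 control cells and 15916 tumor-mouse cells remained, 4023 to 6365 per control and 1721 to 5121 per tumor, with 13763440 to 21702955 and 5902699 to 37640385 unique molecular identifiers (UMIs, one per captured RNA molecule). The fusion-allele sequences (fusion, luciferase and IRES) had 0 to 6 UMIs in control brains and 95 to 12597 in tumors. Cells were grouped into 34 clusters and called by marker genes (for example "microglia-like"), with levels given as CPM, the UMIs of a gene per 1000000 UMIs of the same class and mouse. The planned rule for tumor cells kept almost all of its cells from tumor replicates 2 and 4. A second set was therefore defined after the data were seen, the fusion-allele cells: 6 clusters in which the allele had at least 5 times the UMIs expected from the microglia-like cells of the same mice (5.55 to 8.40 times, against 4.56 for the astrocyte-like cluster just outside). It held 8216 cells, 249, 1635, 188, 4008 and 2136 in tumor replicates 1 to 5, and 18.1%, 52.0%, 25.5%, 85.2% and 45.6% of them carried an allele UMI. Replicates 1 and 3 therefore rest on few tumor cells. Clusters 4 and 23 of the 6 also met the neuroblast-like markers, and the neuroblast-like class below leaves them out. Of the 9 libraries, 8 could be compared by barcode (control replicate 4 lists 80865 barcodes for 80887 columns), and they shared 1 to 9 cell barcodes a pair, at most 0.291%.

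**Figure D1:**
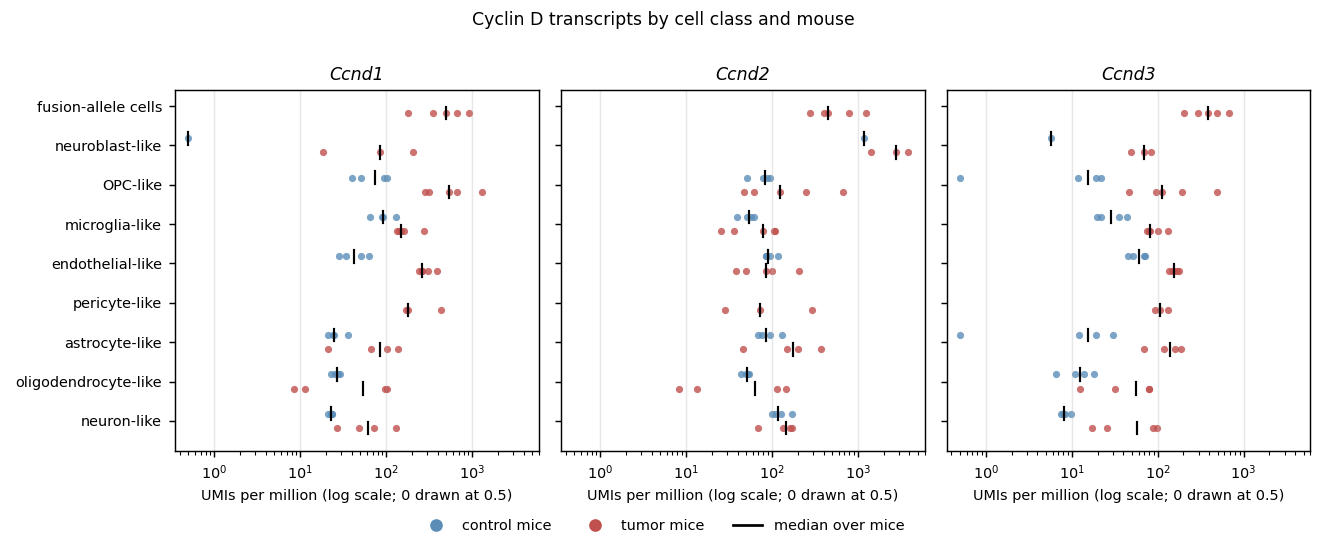
Levels of Ccnd1, Ccnd2 and Ccnd3 (CPM, log scale, with 0 drawn at 0.5) by cell class, with 1 point per mouse and a bar at the group median. Ccnd2 reached 3826, 2786 and 1411 CPM in neuroblast-like cells of 3 tumors, while Ccnd1 there stayed at 207, 18.3 and 84.4 CPM.

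Summed over all cells, 9 of the 10 genes were higher in tumors than in controls, and Rb1 was not called. Of the 9, Cdkn2a and Cdkn2b passed the filter on low counts through their tumor sums. The background was high, because 61.6% of the 17599 genes tested were called in this comparison of unlike tissues, and fewer cells of a type cannot be told apart here from less RNA per cell. Ccnd1 stood at 25.4, 27.1, 25.5 and 24.2 CPM in control replicates 1 to 4 and at 87.4, 649.5, 189.9, 634 and 264 CPM in tumor replicates 1 to 5. All tumors lay above all controls (log2 difference 4.21 ± 0.69 (SE), adjusted p = 0.000907). Ccnd3 went from 10.2 to 11.8 CPM to 80.0, 456, 135, 434 and 222 CPM (4.95 ± 0.66 (SE), adjusted p = 0.000354), again without overlap. Ccnd2 was at 131, 99.9, 100.1 and 95.7 CPM in controls and 111, 551, 583, 246 and 501 CPM in tumors, where replicate 1 fell among the controls (2.18 ± 0.48 (SE), adjusted p = 0.00368). The 2 cyclins with the largest differences were thus Ccnd3 and Ccnd1.

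The kinases and inhibitors followed in the same sums. Cdk4 was at 32.1 to 36.5 CPM in controls and 67.9, 178, 185, 399 and 459 CPM in tumors (3.20 ± 0.57 (SE), adjusted p = 0.00133). Cdk6 rose less evenly, from 4.00 to 5.62 CPM to 19.0, 34.7, 36.1, 3.91 and 8.39 CPM (2.35 ± 0.59 (SE), adjusted p = 0.00702), and tumor replicate 4 lay below every control. Cdkn1b, the p27 gene, went from 23.5 to 27.9 CPM to 49.1, 93.5, 85.2, 144 and 205 CPM (2.48 ± 0.44 (SE), adjusted p = 0.00127). Cdkn2c, the p18 gene, had 1.09 to 2.27 CPM in controls and 35.1, 56.8, 31.0, 76.0 and 59.5 CPM in tumors (5.29 ± 0.46 (SE), adjusted p = 9.24e-05). Cdkn2b, the p15 gene, had 0.145 to 0.820 CPM, from 2 to 13 UMIs, and 7.45, 22.3, 10.7, 17.1 and 13.3 CPM (5.31 ± 0.60 (SE), adjusted p = 0.000193). Cdkn1b, Cdkn2c and Cdkn2b were higher in every tumor than in every control. The Cdkn2b fold rests on few control UMIs, and its tumor sums carried the gene past the filter on low counts. Rb1, the target of the kinases, was at 55.7, 58.6, 60.5 and 59.6 CPM in controls and 43.9, 36.0, 49.3, 31.5 and 51.1 CPM in tumors, lower in each tumor, and yet its fitted difference was -0.23 ± 0.15 (SE), adjusted p = 0.199. The fit scaled libraries by TMM, which set the median gene 0.24 higher on the log2 scale than library totals did, and scaled by library total Rb1 was called lower, by -0.47 (adjusted p = 0.0396). Over all deposited barcodes the fitted Rb1 difference was positive instead. The part of Malat1, at 8.35 to 9.87% of UMIs in controls and 1.75 to 3.98% in tumors, and of ribosomal protein genes, at 3.59 to 3.92% and 7.60 to 15.4%, in these differences was not tested.

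Within single cell classes fewer genes of the set differed. In microglia-like cells 4 of the 8 genes tested were higher in tumors (background 42.2% of 8690 genes), and in endothelial-like cells 5 of 8 (26.2% of 7105). Astrocyte-like cells had 5 of 7 higher (29.6% of 8364), neuron-like cells 3 of 8 (17.9% of 14362) and oligodendrocyte-like cells 1 of 5 (48.0% of 6290). None of the 10 was called lower in any of these 5 classes. Ccnd3 and Cdkn2c were called in the 4 classes other than the oligodendrocyte-like, where neither passed the filter on low counts, and so was Ccnd1, which was tested there and not called.

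Several measured properties moved with these class comparisons, and their part in them was not tested. Tumor and control cells of a class mostly lay in different clusters, microglia-like cells in cluster 24 in controls (90.9%) and in clusters 9 (64.4%), 18 (27.1%) and 31 in tumors. Cluster 18 was led by Lyz2, S100a9, S100a8 and Cd74 and cluster 31 by Ccl4, Hspa1b, Hspa1a and Atf3. Neutrophil markers summed to 44.6 to 111 CPM in control and 107 to 1505 CPM in tumor microglia-like cells, and macrophage markers to 69.7 to 466 and 602 to 2331 CPM. Endothelial-like cells of both groups shared cluster 14. Neuron markers, summed over 12 genes, were at 4574 to 6188 CPM in control microglia-like cells and 127 to 1648 CPM in those of tumors, and at 3888 to 6006 and 78.6 to 1373 CPM in endothelial-like cells. Ribosomal protein genes took 6.01 to 7.20% of UMIs in control and 14.1 to 17.1% in tumor microglia-like cells, and 6.23 to 6.92% and 9.36 to 14.5% in endothelial-like cells. Mitochondrial genes took 7.91 to 8.72% and 2.02 to 8.17% in microglia-like and 10.96 to 12.1% and 1.57 to 8.20% in endothelial-like cells, and Malat1 2.51 to 2.87% and 1.19 to 2.46%, and 3.69 to 4.90% and 1.29 to 3.16%. In astrocyte-like, oligodendrocyte-like and neuron-like cells the ribosomal shares were 3.04 to 4.85% in controls and 3.36 to 6.77% in tumors. Summed own markers were higher in tumors by 1.48 on the log2 scale in oligodendrocyte-like, 1.08 in astrocyte-like, 1.02 in microglia-like and 0.64 in endothelial-like cells and lower by 0.19 in neuron-like cells, a shift in the oligodendrocyte-like class beyond every fitted difference of the 10 genes there. Scaling by TMM rather than by library total raised the median log2 difference by 0.52 in microglia-like, 0.16 in endothelial-like, 0.23 in oligodendrocyte-like and 0.07 in astrocyte-like cells and lowered it by 0.12 in neuron-like cells, so the log2 differences below are relative to that median while CPM are not.

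Free RNA in the droplets is the other measured quantity to set beside each level. Its composition was read from the 3000 deposited barcodes with the fewest UMIs in each library. These are not empty droplets: the deposited barcodes stop at 468 to 517 UMIs, those used had medians of 559 to 1338 UMIs, and in tumor replicate 3, with 9001 barcodes in all, they were also among the barcodes considered as cells. What is called free RNA here is thus an estimate that can hold RNA of small or damaged cells. In it Ccnd1 was at 42.8 to 532 CPM in tumors and 23.9 to 38.2 CPM in controls. The fusion allele gauged how much free RNA reached a class, on the assumption that microglia and endothelium lack the allele. It stood at 5.64 to 40.1% of its free level in tumor microglia-like cells, 0 to 53.5% in endothelial-like, 33.4 to 56.8% in neuron-like and 38.3 to 247% in astrocyte-like cells. Whether endothelium lacks the allele was not tested. In tumor replicate 5 the endothelial-like gauge was 53.5%, against 21.9% in microglia-like cells. In tumor replicates 1 and 3 the astrocyte-like gauge was over 100% (149 and 247%), above the free RNA level itself, so the part of free RNA and of the allele's own transcripts cannot be told apart in that class. Neuron-like cells are not known to lack the allele either, so their gauge can hold its own transcripts. At Leiden resolution 2.0 the largest tumor cluster of that class had 43 allele UMIs, with 25.5 expected from microglia-like cells. Subtraction, where given, was from the tumor sums alone and never took off more than the full free RNA level. In astrocyte-like cells of tumor replicates 1 and 3 it reached that limit, and 25.4% and 31.6% of the UMIs were left. Controls kept their own free RNA, with Ccnd1 at 23.9 to 38.2 and Ccnd2 at 55.3 to 75.3 CPM in it, so differences of genes rich in tumor free RNA are pushed down by construction, and a call lost or a sign turned by it says nothing of direction. In control microglia-like cells tdTomato, on 9, 12, 7 and 22 UMIs, stood at 112, 85.9, 66.2 and 75.1% of its free RNA level in replicates 1 to 4. By these gauges the control sums of that class held more free RNA than the tumor sums. The part of this in the class comparisons was not tested. A level below is called above free RNA where it exceeded the level of that gene which the fusion-allele gauge gives. That gauge rested on 4, 52, 2, 177 and 26 allele UMIs in microglia-like cells of tumor replicates 1 to 5. In endothelial-like cells it rested on 0, 5, 2, 35 and 33. Where it had few UMIs, a level close to it cannot be told from free RNA.

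**Figure D2:**
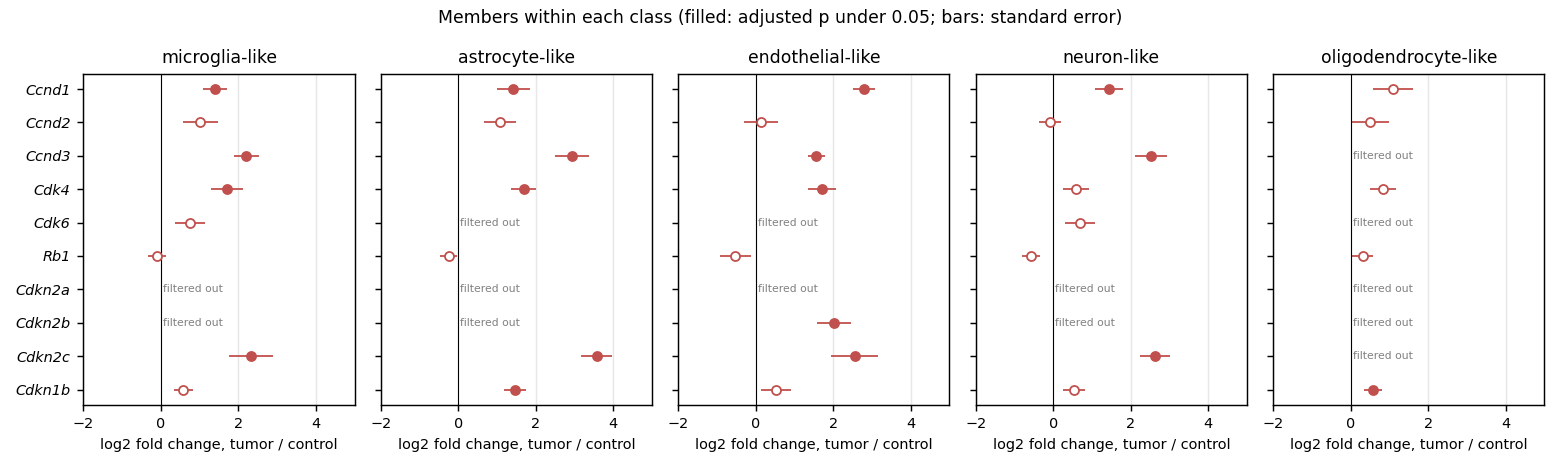
Fitted log2 differences (tumor minus control, ± SE) of the 10 genes in 5 cell classes, filled where the adjusted p was under 0.05. Ccnd1 had its largest difference in endothelial-like cells (2.79 ± 0.28), and Rb1 was called in none of the 5.

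Ccnd1 (chr7:144929931-144939925, mm10), the D-type cyclin that mitogen signals induce, had its largest fitted difference, of the 5 classes fitted, in endothelial-like cells. There it was at 28.3, 51.2, 34.3 and 64.2 CPM in controls, from 2 to 11 UMIs each, and at 311, 239.6, 260.0, 395 and 263 CPM in tumors (2.79 ± 0.28 (SE), adjusted p = 0.000373). Every tumor exceeded every control, and in the 4 tumors with an allele UMI in this class its level stood above free RNA. In microglia-like cells Ccnd1 was at 65.4, 90.3, 129.9 and 93.6 CPM in controls and 152, 162, 143, 280.5 and 133 CPM in tumors (1.41 ± 0.31 (SE), adjusted p = 0.0032). The groups did not overlap, replicate 4 stood above the other tumors, and all 5 tumors were above free RNA. With free RNA taken off the tumor sums the difference was 1.19 in microglia-like and 2.74 in endothelial-like cells and was called in both. Whether the endothelial difference exceeded the microglial one was tested after the levels were seen, as 1 of 20 such differences over genes and classes, and the endothelial-minus-microglial log2 level was 1.71 higher in tumors (exact permutation test over 5 and 4 mice, p = 0.00794, adjusted p = 0.0794). That unadjusted value is the smallest that 5 and 4 mice allow. None of the 20 passed the threshold after adjustment.

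The Ccnd1 calls in astrocyte-like and neuron-like cells were lost when some single mice were left out, which also leaves fewer mice to test. In astrocyte-like cells Ccnd1 was at 21.0, 36.5, 24.8 and 24.4 CPM in controls and 21.2, 139, 103 and 67.9 CPM in tumor replicates 1, 2, 3 and 5 (1.42 ± 0.42 (SE), adjusted p = 0.0166), with replicate 1 inside the control range. The tumor level was above free RNA in 0 of 4 mice (highest ratio 0.92), so it cannot be told from free RNA. The call was lost without control replicate 1 (adjusted p = 0.0545), control replicate 4 (0.0568) or tumor replicate 3 (0.0675). In neuron-like cells it was at 21.1 to 23.6 CPM in controls and 26.8, 132, 49.0 and 73.1 CPM in those 4 tumors (1.44 ± 0.37 (SE), adjusted p = 0.0183). Although every tumor was above the controls, 2 of 4 were above free RNA, and with it taken off the tumor sums alone the difference was -1.60 (adjusted p = 0.0572). The call was lost without tumor replicate 2 (0.61, adjusted p = 0.0885) or control replicates 2, 3 or 4 (adjusted p = 0.0513, 0.0529 and 0.0519). Oligodendrocyte-like cells had 23.0 to 29.1 CPM in controls and 11.4, 96.4, 8.44 and 102 CPM in tumors (1.08 ± 0.52 (SE), adjusted p = 0.0895), with tumors on either side of the controls. The call appeared without tumor replicate 1 (1.50, adjusted p = 0.00735) or 3 (1.41, adjusted p = 0.00886), and without replicate 2 the difference was -0.20.

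Ccnd1 was also high in the fusion-allele and OPC-like cells of the tumors. The OPC-like class was not free of the allele: in its tumor cluster 38.8% of cells had an allele UMI, and allele UMIs were 2.31 times those expected from microglia-like cells of the same mice. The allele stood in it at 0, 60.4 and 38.7% of its free RNA level in tumor replicates 1, 4 and 5. In replicates 2 and 3 it stood at 100% or more. OPC-like levels were not set against free RNA. Fusion-allele cells had 179, 931, 507, 673 and 349 CPM in tumor replicates 1 to 5 and OPC-like cells, the class of oligodendrocyte precursors, 319.9, 1316, 536, 673 and 287 CPM. The OPC-like level was the higher of the pair in replicates 1, 2 and 3, the lower in replicate 5 and level with the other in replicate 4. Fusion-allele cells exceeded microglia-like cells in 5 of 5 tumors, endothelial-like cells in 4 of 5 and astrocyte-like cells in 4 of 4. Control OPC-like cells had 39.8, 102, 95.9 and 51.8 CPM, from 2 to 16 UMIs. Within the fusion-allele cells of tumor replicate 2 the clusters ranged from 317 to 1000 CPM, so the level was not one value per tumor.

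Ccnd2 (chr6:127125162-127152193), the progenitor cyclin of the developing brain, followed another order. It was highest in neuroblast-like cells, at 3826, 2786 and 1411 CPM in tumor replicates 2, 3 and 5 and 1175 CPM in the control (replicate 3) with enough such cells. This class was not free of the allele, which stood in it at 11.9, 70.8 and 87.9% of its free RNA level in those 3 tumors. At Leiden resolution 2.0 the neuroblast-like cluster led by Igfbpl1 and Dlx2 had 4.32 times the allele UMIs expected from microglia-like cells. Whether the class holds tumor cells was not tested. Fusion-allele cells came next, at 449.6, 795, 1255, 277 and 408 CPM in tumor replicates 1 to 5, below the neuroblast-like cells in 3 of 3 tumors and above OPC-like, microglia-like and endothelial-like cells in 5 of 5. Tumor replicate 3 held the most and replicate 4 the least. In replicate 4 one cluster of fusion-allele cells had 135 CPM and another 559 CPM. Outside the fusion-allele cells Ccnd2 was called in none of the 5 classes: it was at 62.4, 57.8, 51.4 and 39.8 CPM in control and 25.7, 108, 36.5, 80.1 and 107 CPM in tumor microglia-like cells (1.02 ± 0.44 (SE), adjusted p = 0.0842), groups that overlapped. Without tumor replicate 1 or 3 the call appeared there (1.15, adjusted p = 0.0185, and 1.22, adjusted p = 0.0254), and with free RNA taken off the tumor sums alone the difference was -0.91. Astrocyte-like cells had 132, 77.8, 68.6 and 94.2 CPM and 45.9, 204, 372 and 152 CPM (1.09 ± 0.41 (SE), adjusted p = 0.0565), called without tumor replicate 1 (1.43, adjusted p = 0.000646) and at -0.15 with free RNA taken off. The endothelial-like difference was 0.13 ± 0.44, the oligodendrocyte-like 0.50 ± 0.49 and the neuron-like -0.08 ± 0.28 (adjusted p = 0.863, 0.411 and 0.867).

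Ccnd3 (chr17:47505051-47599691), known for its part in hematopoietic cells, was at 202, 683, 381, 498 and 297 CPM in fusion-allele cells. In microglia-like cells it stood at 44.6, 19.9, 35.2 and 21.9 CPM in controls and 74.3, 102, 80.7, 132 and 79.0 CPM in tumors (2.21 ± 0.33 (SE), adjusted p = 0.000324). Endothelial-like cells had 70.7, 45.5, 51.5 and 70.0 CPM and 154, 135, 177, 147 and 169 CPM (1.57 ± 0.23 (SE), adjusted p = 0.00108). Tumors and controls were apart in both classes, all 5 tumors were above free RNA in microglia-like cells and the 4 that could be gauged in endothelial-like cells, and both calls held with free RNA taken off (1.64 and 1.42). Astrocyte-like cells went from 0, 19.1, 30.5 and 12.2 CPM to 68.9, 186, 159 and 118 CPM (2.94 ± 0.44 (SE), adjusted p = 0.000146), still called with free RNA taken off (2.78, adjusted p = 0.0292). That subtraction was at its limit in tumor replicates 1 and 3, so the kept call does not separate free RNA from the cells' own RNA. In neuron-like cells, at 7.56 to 9.75 and 25.6, 99.0, 17.1 and 88.4 CPM (2.53 ± 0.42 (SE), adjusted p = 0.0016), the difference was 0.39 and not called once free RNA was taken off (adjusted p = 0.74).

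**Figure D3:**
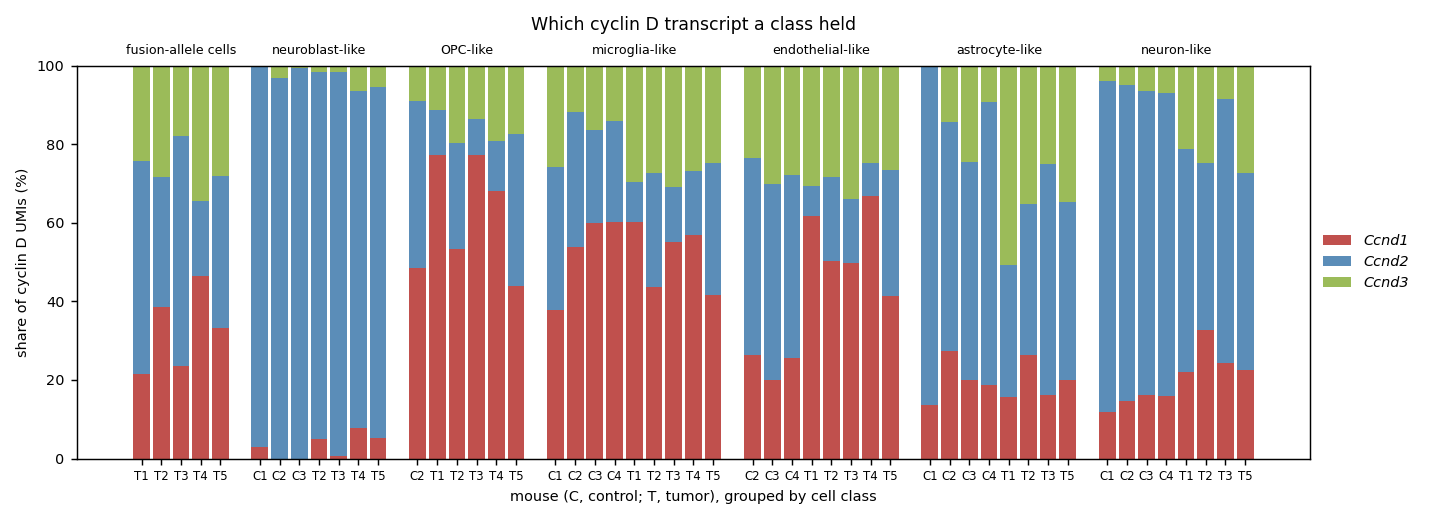
Shares (%) of Ccnd1, Ccnd2 and Ccnd3 in the UMIs of the 3 genes, stacked to 100% for each mouse and class with at least 30 such UMIs. Ccnd1 held 41.3 to 66.7% in endothelial-like cells of tumors and 20.0 to 26.5% in those of 3 controls.

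The share of each D-type cyclin in the UMIs of the 3 genes does not depend on library totals, but it can hold free RNA. In free RNA Ccnd1, Ccnd2 and Ccnd3 had means of 30.9, 61.9 and 12.2 CPM in controls and 255, 288 and 188 CPM in tumors. The part of free RNA in the shares was not tested. Over all cells Ccnd1 held 18.0% ± 1.88 (SD, n = 4) in controls and 33.3% ± 10.7 (n = 5) in tumors. The groups did not overlap (exact permutation test, two-sided, p = 0.0159, adjusted over 8 such tests p = 0.0714). In endothelial-like cells the share was 24.0% ± 3.51 in 3 controls and 54.0% ± 10.2 in 5 tumors, also without overlap (exact permutation p = 0.0179, the smallest possible, adjusted p = 0.0714). The Ccnd2 share there, not tested, was 46.5 to 50.0% in controls and 7.66 to 32.3% in tumors, and since the 3 shares sum to 100% it falls where another rises (the Ccnd2 level itself was not called, 0.13 ± 0.44). Microglia-like cells held 53.0% ± 10.5 Ccnd1 in controls and 51.5% ± 8.36 in tumors (exact permutation p = 0.857), and astrocyte-like cells 19.9% ± 5.65 and 19.6% ± 4.92 (exact permutation p = 0.943), 4 mice each. Neuron-like cells had 14.7% ± 2.05 and 25.5% ± 4.98 (exact permutation p = 0.0286, adjusted p = 0.0762).

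Fusion-allele cells mixed all 3 cyclins, and the mixture varied from tumor to tumor. Ccnd1, Ccnd2 and Ccnd3 held 21.6%, 54.1% and 24.3% in tumor replicate 1 and 38.7%, 33.0% and 28.3% in replicate 2. Replicate 3 had 23.6%, 58.6% and 17.8%, replicate 4 had 46.5%, 19.2% and 34.4%, and replicate 5 had 33.1%, 38.7% and 28.2%. The clusters behind these cells differed too: the 2 that met the neuroblast-like markers supplied 245 of 249, 131 of 1635, 130 of 188, 18 of 4008 and 2124 of 2136 cells in replicates 1 to 5, and the part of this in the differences between tumors was not tested. The Ccnd1 share was lower than in microglia-like cells of the same mouse in 5 of 5 tumors, by 18.8 points on average, and lower than in endothelial-like cells in 5 of 5, by 21.3 points (exact sign-flip tests, both p = 0.0625, the smallest that 5 mice allow, adjusted p = 0.1). In neuroblast-like cells Ccnd2 alone made up 85.7 to 99.5%.

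**Figure D4:**
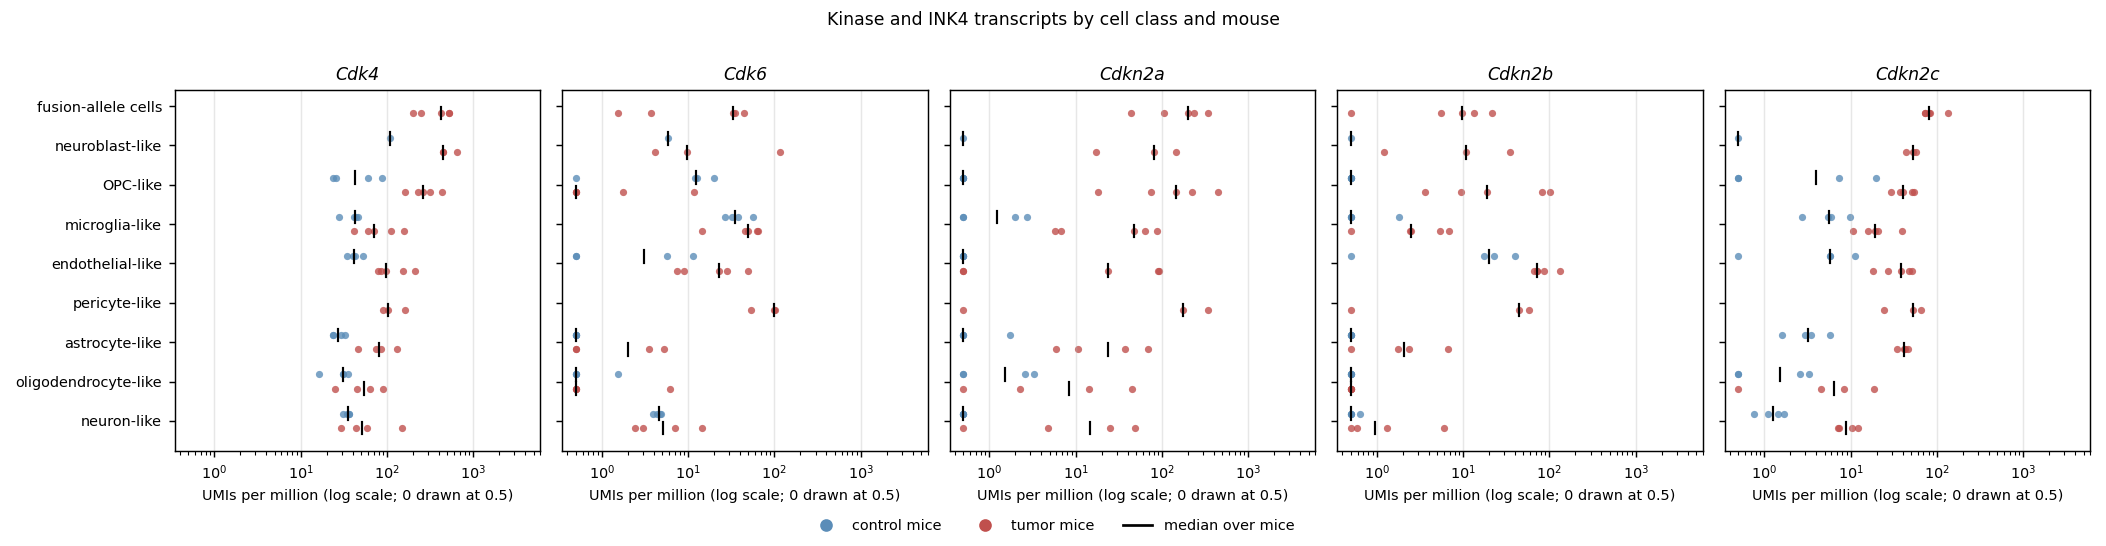
Levels of Cdk4, Cdk6, Cdkn2a, Cdkn2b and Cdkn2c (CPM, log scale, with 0 drawn at 0.5) by cell class, with 1 point per mouse and a bar at the group median. Cdk6 was at 14.5 to 64.3 CPM in tumor microglia-like cells and 1.53 to 45.0 CPM in fusion-allele cells, and Cdkn2b at 65.8 to 132 CPM in tumor endothelial-like cells.

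Cdk4 (chr10:127063534-127067920), one of the 2 kinases that D-type cyclins activate, was at 199.7, 245, 522, 425 and 529.9 CPM in fusion-allele cells and at 449, 444 and 649.7 CPM in neuroblast-like cells of tumor replicates 2, 3 and 5. Microglia-like cells had 41.6, 43.4, 46.0 and 27.9 CPM in controls and 41.5, 61.2, 70.5, 158 and 112 CPM in tumors (1.72 ± 0.41 (SE), adjusted p = 0.00523). Replicate 1 overlapped the controls and replicate 4 was highest. Endothelial-like cells had 42.4, 34.1, 40.0 and 52.5 CPM and 86.2, 96.7, 79.8, 210.0 and 152 CPM (1.70 ± 0.36 (SE), adjusted p = 0.00571), with no overlap. Cdk4 stood above free RNA in all 5 tumors in microglia-like cells and in the 4 that could be gauged in endothelial-like cells, and both calls held with free RNA taken off (1.57 and 1.45). In astrocyte-like cells, at 23.8 to 32.4 and 46.8, 74.3, 86.4 and 132 CPM (1.69 ± 0.32 (SE), adjusted p = 0.000881), the call was lost with free RNA taken off (0.93, adjusted p = 0.331), in the class where the gauge passed 100%. Neuron-like cells (0.58 ± 0.33 (SE), adjusted p = 0.251) and oligodendrocyte-like cells (0.83 ± 0.34 (SE), adjusted p = 0.0505) were not called, the latter passing without tumor replicate 1 (1.09, adjusted p = 0.0107).

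Cdk6 (chr5:3341485-3531008), the partner kinase prominent in blood cells, differed from Cdk4 in its order: fusion-allele cells had less Cdk6 than microglia-like cells in 5 of 5 tumors and more Cdk4 in 5 of 5, while over astrocyte-like, neuron-like and oligodendrocyte-like cells they had more of both kinases in 4 of 4. Microglia-like cells had 32.7, 27.1, 37.9 and 55.8 CPM in controls and 64.3, 49.1, 63.2, 14.5 and 45.3 CPM in tumors, where replicate 4 was lowest and the groups overlapped (0.75 ± 0.38 (SE), adjusted p = 0.13). The call appeared without tumor replicate 4 (0.99, adjusted p = 0.00598) and with free RNA taken off (0.98, adjusted p = 0.0495). Pericyte-like cells reached the minimum of 20 cells in tumor replicates 2, 3 and 4, where they had 53.7, 99.9 and 102 CPM. Fusion-allele cells had 33.5, 34.6, 45.0, 1.53 and 3.68 CPM in replicates 1 to 5, with replicates 4 and 5 far below the others on 47 and 37 UMIs. Nearly all cells of replicates 1 and 5 lay in the clusters that met the neuroblast-like markers, and nearly all of replicate 4 outside them. Astrocyte-like and oligodendrocyte-like cells held 0 to 6 UMIs in every mouse, and Cdk6 was not tested there nor in endothelial-like cells. Neuron-like cells had 3.97 to 4.80 CPM in controls and 7.13, 14.3, 2.45 and 3.05 CPM in tumors (0.69 ± 0.39 (SE), adjusted p = 0.251).

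Rb1 (chr14:73183673-73325822), which encodes the retinoblastoma protein, was called in none of the 5 classes. It was at 52.6, 42.2, 36.3, 32.1 and 48.2 CPM in fusion-allele cells. Astrocyte-like cells had 108, 106, 80.0 and 95.9 CPM in controls and 71.5, 74.3, 102 and 61.3 CPM in tumors (-0.25 ± 0.21 (SE), adjusted p = 0.415), and microglia-like cells 44.6, 54.2, 37.9 and 53.8 CPM and 40.0, 18.6, 40.8, 24.5 and 39.9 CPM (-0.10 ± 0.24 (SE), adjusted p = 0.773). The groups overlapped in both. Its other log2 differences were -0.53 ± 0.39 in endothelial-like, 0.31 ± 0.27 in oligodendrocyte-like and -0.57 ± 0.23 in neuron-like cells. In the last, tumor replicate 5 (88.4 CPM) lay above the controls (55.1 to 63.9 CPM) and the other tumors (31.8 to 39.1 CPM) below, and without it Rb1 was called lower (-0.86, adjusted p = 0.00468).

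The 3 INK4 genes of this set lie on mouse chromosome 4, Cdkn2a and Cdkn2b as neighbors. Their promoters are given because the 3 are compared with one another, each as a window of 300 bases that spans a transcription start and lies mostly upstream of it, read along the minus strand 5′ to 3′ (RefSeq, GRCm38.p6). Capitals mark the GC box GGGCGG, the E2F motifs GCGGGAA and TTTCCCGC, and the cyclic AMP response element TGACGTCA where found on either strand. Cdkn2a has 2 starts, an upstream one for p19ARF and a downstream one for p16INK4a, and the counts are per gene and do not separate them. The upstream Cdkn2a window (chr4:89294570-89294869) is 77% G and C, with 3 GC boxes at positions 203, 237 and 282, counted from 1 at the 5′ end, and overlapping E2F matches at 152 and 153. The downstream one (chr4:89282143-89282442) has 1 GC box at 274. The Cdkn2b window (chr4:89310983-89311282) has the response element at 205 and a GC box at 255. The first Cdkn2c window (chr4:109666707-109667006) has 4 GC boxes, at 156, 200, 211 and 287, and an E2F match at 226. It lies inside the mm10 span of the gene (chr4:109660876-109667189), downstream of the 5′ end of that span. Of the 32851 mouse promoter windows of the same length, 35.7% hold a GC box, 4.60% an E2F match and 1.79% the response element. Neither the TEAD motif GGAATG nor the kappa-B consensus, in 14.7% and 8.46% of windows, was found in these 4.
Cdkn2a, upstream start: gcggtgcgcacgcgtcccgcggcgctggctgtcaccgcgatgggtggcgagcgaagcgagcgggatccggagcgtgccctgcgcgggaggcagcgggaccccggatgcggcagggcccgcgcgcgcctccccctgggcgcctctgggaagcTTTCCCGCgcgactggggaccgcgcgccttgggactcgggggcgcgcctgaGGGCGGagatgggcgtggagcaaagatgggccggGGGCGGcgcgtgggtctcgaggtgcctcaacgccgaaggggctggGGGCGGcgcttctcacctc
Cdkn2a, downstream start: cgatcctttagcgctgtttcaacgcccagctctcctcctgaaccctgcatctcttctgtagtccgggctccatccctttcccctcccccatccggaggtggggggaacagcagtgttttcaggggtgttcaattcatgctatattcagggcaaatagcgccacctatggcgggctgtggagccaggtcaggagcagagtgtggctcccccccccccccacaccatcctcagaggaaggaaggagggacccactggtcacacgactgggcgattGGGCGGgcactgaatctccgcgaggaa
Cdkn2b: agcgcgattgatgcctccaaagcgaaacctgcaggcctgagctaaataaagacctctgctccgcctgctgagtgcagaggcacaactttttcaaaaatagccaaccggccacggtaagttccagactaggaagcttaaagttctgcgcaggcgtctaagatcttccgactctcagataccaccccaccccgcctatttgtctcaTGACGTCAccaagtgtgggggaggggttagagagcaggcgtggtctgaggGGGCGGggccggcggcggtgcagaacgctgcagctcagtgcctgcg
Cdkn2c, first start: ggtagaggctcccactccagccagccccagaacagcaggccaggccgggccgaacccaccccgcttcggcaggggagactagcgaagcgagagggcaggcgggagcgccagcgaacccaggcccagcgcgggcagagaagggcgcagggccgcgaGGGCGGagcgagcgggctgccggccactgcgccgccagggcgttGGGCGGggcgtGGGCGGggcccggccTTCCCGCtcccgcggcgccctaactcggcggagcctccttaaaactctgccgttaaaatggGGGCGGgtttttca

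Cdkn2a (chr4:89274471-89294653), the tumor suppressor gene of p16INK4a and p19ARF, was close to absent from the control libraries. All kept cells of a control held 3, 2, 3 and 3 UMIs in replicates 1 to 4, against 123, 3991, 80, 8387 and 2599 in tumor replicates 1 to 5, or 20.8, 236, 11.4, 223 and 162 CPM (adjusted p = 0.000363). A fold would rest on those 11 control UMIs and is not given. The tumor sums carried Cdkn2a past the filter on low counts in this comparison. Fusion-allele cells had 106, 342, 43.9, 237 and 198 CPM, and a UMI was found in 18.1%, 75.9%, 10.6%, 75.4% and 54.0% of them, at median depths of 2882, 5206, 2319.5, 6848.5 and 4100.5 UMIs per cell. Replicate 3 stood lowest and replicate 2 highest. Microglia-like cells of the same tumors had 5.72, 47.2, 6.81, 87.3 and 62.9 CPM, with a UMI in 1.19%, 18.3%, 3.21%, 35.9% and 19.4% of cells at median depths of 2486, 4521, 3399.5, 6135 and 4046 UMIs. Fusion-allele cells thus had the higher level in 5 of 5 tumors, while the microglia-like level stood above free RNA in 5 of 5 as well. The lowest ratio to free RNA was 1.39. In replicate 1 the level came from 4 Cdkn2a UMIs and the gauge from 4 allele UMIs, so Cdkn2a there cannot be told from free RNA. Endothelial-like cells had 0, 23.8, 0, 91.6 and 90.2 CPM and no UMI in controls. OPC-like cells had 75.3, 450.2, 18.2, 223 and 145 CPM, and pericyte-like cells 177, 0 and 346 CPM in replicates 2, 3 and 4. Cdkn2a did not pass the filter on low counts in any of the 5 tumor-against-control class comparisons.

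Cdkn2b (chr4:89306299-89311039), the gene of the TGF-beta-responsive inhibitor p15, was higher in endothelial-like than in fusion-allele cells in 5 of 5 tumors, and higher than in OPC-like cells in 4 of 5, replicate 5 being the exception. Endothelial-like cells had 0, 22.7, 40.0 and 17.5 CPM in controls, from 0 to 7 UMIs, and 72.6, 86.3, 65.8, 132 and 72.5 CPM in tumors, from 32 to 133 UMIs (2.03 ± 0.44 (SE), adjusted p = 0.00602). No tumor overlapped a control, and with free RNA taken off the difference was 2.21 and called. The fold rests on those few control UMIs, and the tumor sums carried the gene past the filter on low counts. The endothelial-minus-microglial log2 level was 1.51 higher in tumors than in controls (exact permutation test, p = 0.00794, adjusted over the 20 differences p = 0.0794). In fusion-allele cells Cdkn2b was at 0, 21.6, 5.49, 13.3 and 9.64 CPM and in OPC-like cells at 9.41, 83.1, 3.65, 19.0 and 102 CPM. Microglia-like cells stayed at 0 to 6.84 CPM, and no UMI was seen in oligodendrocyte-like cells of any mouse.

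Cdkn2c (chr4:109660876-109667189), which encodes the INK4 protein p18, was at 134, 80.9, 72.5, 82.6 and 73.7 CPM in fusion-allele cells. Clusters of these cells differed, with 174 CPM in one cluster of tumor replicate 2 and 50.7 CPM in another, and 154 and 70.7 CPM in the same clusters of replicate 4. Astrocyte-like cells had 3.01, 1.59, 5.72 and 3.49 CPM in controls, from 1 to 3 UMIs, and 41.5, 46.5, 42.6 and 34.8 CPM in tumors (3.57 ± 0.40 (SE), adjusted p = 2.35e-05). Microglia-like cells had 5.94, 5.42, 2.71 and 9.96 CPM and 15.7, 19.3, 10.7, 39.8 and 20.7 CPM (2.33 ± 0.56 (SE), adjusted p = 0.00535), and endothelial-like cells 0, 11.4, 5.72 and 5.83 CPM and 27.2, 38.7, 18.3, 47.8 and 51.8 CPM (2.55 ± 0.60 (SE), adjusted p = 0.00854). Tumors were above controls in all 3 classes, on control counts of 0 to 5 UMIs a mouse. The folds thus rest on few control UMIs, and the gene passed the filter on low counts through its tumor sums. The tumor levels stood above free RNA in 5 of 5 microglia-like and the 4 gauged endothelial-like sums, but with free RNA taken off Cdkn2c no longer passed the filter on low counts in any of these classes and could not be tested. In neuron-like cells (0.769 to 1.72 against 7.13, 10.4, 7.35 and 12.2 CPM, 2.63 ± 0.38 (SE), adjusted p = 0.000724) the tumor level exceeded free RNA in 0 of 4 mice.

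Cdkn1b (chr6:134920401-134925513), the gene of p27, was at 89.7, 111, 104, 159 and 205 CPM in fusion-allele cells and at 173, 173 and 388 CPM in neuroblast-like cells of tumor replicates 2, 3 and 5. In astrocyte-like cells it was at 36.1, 39.7, 43.8 and 29.6 CPM in controls and 54.7, 102, 105 and 139 CPM in tumors, without overlap (1.47 ± 0.29 (SE), adjusted p = 0.00128), and the call held with free RNA taken off (1.55). Since the subtraction there was at its limit in tumor replicates 1 and 3, this does not separate free RNA from the cells' own RNA. Oligodendrocyte-like cells, in which p27 accompanies cell cycle exit, had 54.2, 76.6, 69.1 and 49.8 CPM and 77.2, 77.9, 84.4 and 102 CPM (0.58 ± 0.23 (SE), adjusted p = 0.0444). That call was lost when any one of control replicates 1 to 4 or tumor replicates 1 or 2 was left out (adjusted p = 0.0844, 0.054, 0.0961, 0.237, 0.0792 and 0.108) and under scaling by library total (0.35, adjusted p = 0.217). Cdkn1b was not called in microglia-like (0.58 ± 0.24 (SE), adjusted p = 0.0713), endothelial-like (0.51 ± 0.39 (SE), adjusted p = 0.356) or neuron-like cells (0.53 ± 0.28 (SE), adjusted p = 0.212). It passed in microglia-like cells without tumor replicate 3 (0.66, adjusted p = 0.046) and in neuron-like cells without tumor replicate 1 (0.93, adjusted p = 0.0268).

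**Figure D5:**
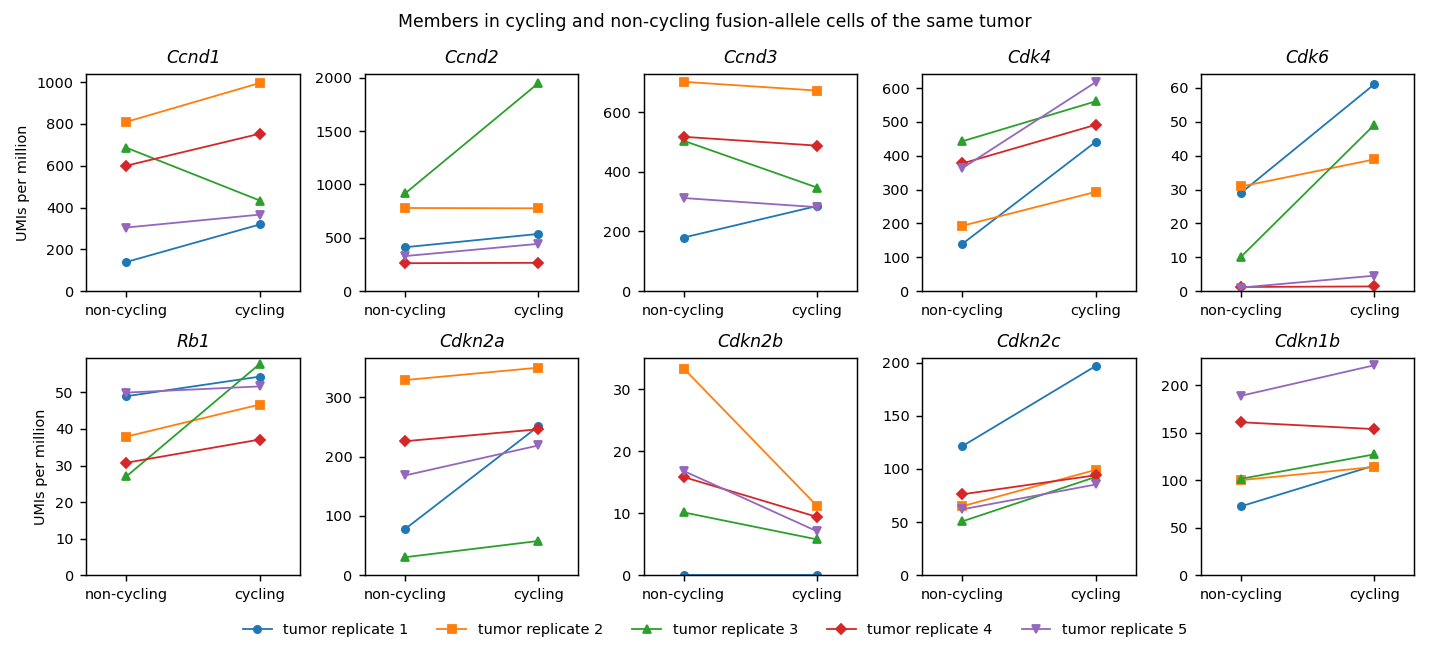
Levels (CPM) of the 10 genes in non-cycling and cycling fusion-allele cells, with 1 line per tumor. Cdkn2b fell in the 4 tumors that had any UMI, and Cdk4 and Cdkn2c were higher in cycling cells in 5 of 5 tumors.

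Cycling and non-cycling fusion-allele cells were then compared within each tumor, with the mouse as a block. A cell was called cycling when it had UMIs of at least 3 of 15 G2/M genes or at least 4 of 15 S-phase genes, and non-cycling when it had at most 1 of each. This left 29, 664, 45, 1205 and 1064 cycling cells in tumor replicates 1 to 5 and 186, 627, 104, 1568 and 527 non-cycling ones. None of the 10 genes was among the 30, yet cycling cells were deeper, with median depths of 2949 to 8928 UMIs against 1970.5 to 5697. Of the 10 genes, 4 were higher in cycling cells and 1 was lower (background 27.7% of 11298 genes).

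Cdkn2b was the gene that fell, from 0, 33.4, 10.1, 15.8 and 16.8 CPM in non-cycling to 0, 11.2, 5.78, 9.41 and 7.09 CPM in cycling cells of tumor replicates 1 to 5 (-1.07 ± 0.19 (SE), adjusted p = 0.000512). It was lower in all 4 tumors that had a UMI, on 3 and 2 UMIs in replicate 3. Cdkn2c moved the other way, from 121, 65.0, 50.7, 76.2 and 62.1 CPM to 197, 99.2, 92.5, 94.1 and 85.4 CPM (0.54 ± 0.10 (SE), adjusted p = 0.000885), and Cdk4 from 139.6, 193, 443, 377 and 363 CPM to 441, 293, 561, 492 and 618 CPM (0.69 ± 0.15 (SE), adjusted p = 0.00205). Both were higher in cycling cells in 5 of 5 tumors. The S-phase list holds E2F targets, and the first Cdkn2c window has an E2F match. How far the way cells were called cycling builds in the Cdkn2c rise was not tested. When cells were thinned to 2000 UMIs before the cycling call, Cdkn2b was at -1.29, Cdkn2c at 0.94 and Cdk4 at 0.50, all still called. The Cdkn2c call was lost with the limit of 10% on mitochondrial UMIs (0.34, adjusted p = 0.128) and with no doublets removed (0.61, adjusted p = 0.184), where Cdk4 alone of the 10 was called (1.17) and Cdkn2b did not pass the filter on low counts.

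Of the cyclins Ccnd2 alone was called, and by a narrow margin. Ccnd1 went from 139.6, 810.5, 686, 601 and 304 CPM to 319, 996, 434, 753 and 366 CPM, higher in 4 of 5 tumors (0.25 ± 0.18 (SE), adjusted p = 0.317), and was called without tumor replicate 3 (0.42, adjusted p = 0.0123). Ccnd2 went from 412, 779.6, 916, 262 and 329 CPM to 536, 777, 1951, 265 and 443 CPM (0.38 ± 0.14 (SE), adjusted p = 0.0489). That call was lost without tumor replicate 2, 3, 4 or 5 (adjusted p = 0.0633, 0.149, 0.0743 and 0.185) and with thinned cells. Ccnd3 was at 179.5 to 701 and 281 to 672 CPM (-0.06 ± 0.14 (SE), adjusted p = 0.784). The Cdk6 call (0.67 ± 0.24 (SE), adjusted p = 0.0447) was lost without any one of the 5 tumors (adjusted p = 0.0696 to 0.109). Rb1 (0.30 ± 0.12 (SE), adjusted p = 0.0715), Cdkn2a (0.42 ± 0.15 (SE), adjusted p = 0.0512) and Cdkn1b (0.20 ± 0.11 (SE), adjusted p = 0.178) did not pass. The share of Ccnd1 among the 3 cyclins differed by 1.08 points between cycling and non-cycling cells (exact sign-flip test, p = 0.875).

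The planned rule for tumor cells gave the same comparison in tumor replicates 2 and 4 alone, where 5 of 10 genes were called (background 26.4% of 13459 genes). Cdk4 (0.56 ± 0.10), Cdkn2c (0.52 ± 0.12), Rb1 (0.43 ± 0.14) and Ccnd1 (0.36 ± 0.09) were higher in cycling cells and Cdkn2b lower (-1.04 ± 0.19), with adjusted p = 6.76e-08, 9.02e-05, 0.0128, 0.000331 and 4.81e-07. Ccnd2 (0.07 ± 0.09), Ccnd3 (-0.03 ± 0.09), Cdk6 (0.43 ± 0.24), Cdkn2a (0.14 ± 0.10) and Cdkn1b (0.11 ± 0.11) were not called. These p-values come from 4 sums of 2 mice with the mouse as a block, which leaves 1 residual degree of freedom, so their precision is borrowed across genes and hardly rests on the spread between mice. These 2 mice supply most of the fusion-allele cells too, so the 2 comparisons are not independent. Rb1 was no longer called when scaled by library total (0.35, adjusted p = 0.0568). DESeq2 called Cdk4 and Cdkn2b alone (adjusted p = 0.00193 and 0.046), not Ccnd1, Cdkn2c or Rb1 (adjusted p = 0.082, 0.0928 and 0.471), and with the limit of 10% on mitochondrial UMIs the Ccnd1 and Rb1 calls were lost (adjusted p = 0.125 and 0.147). The Ccnd1 call was also lost with thinned cells (0.14, adjusted p = 0.162) and with the G2/M list alone (0.20, adjusted p = 0.158).

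Non-cycling fusion-allele cells were also set against microglia-like cells of the same 5 tumors, where 9 of 10 genes were called, 8 of them higher in fusion-allele cells (background 49.1% of 11082 genes). TMM lowered the median log2 difference by 0.36 against library totals here. Ccnd2 had the largest difference among the cyclins (2.53 ± 0.44 (SE), adjusted p = 0.000556), followed by Ccnd3 (1.81 ± 0.23) and Ccnd1 (1.04 ± 0.32, adjusted p = 0.0181). Without tumor replicate 2 or 5 the Ccnd1 call was lost (0.75, adjusted p = 0.0981, and 1.05, adjusted p = 0.0509), as it was with no doublets removed (0.22, adjusted p = 0.564) and at Leiden resolution 2.0 (0.91, adjusted p = 0.0584). The inhibitors Cdkn2b (1.79 ± 0.45), Cdkn2a (1.72 ± 0.30), Cdkn2c (1.39 ± 0.27) and Cdkn1b (0.82 ± 0.18) were all higher, as was Cdk4 (1.44 ± 0.22), and Cdkn2b was not called without tumor replicate 2 (1.06, adjusted p = 0.0663). Cdk6 alone was lower (-2.49 ± 0.50 (SE), adjusted p = 0.00157), in 29.0, 30.9, 10.1, 1.23 and 1.05 CPM against 64.3, 49.1, 63.2, 14.5 and 45.3 CPM, lower in 5 of 5 tumors. Its fusion-allele levels came from 16, 88, 3, 12 and 2 UMIs in tumor replicates 1 to 5. The Rb1 difference was 0.01 ± 0.21. In tumor replicates 2 and 4 the planned tumor cells gave 9 of 10 called against microglia-like cells (39.2% of 12086 genes), again on 1 residual degree of freedom. Cdk6 was lower (-2.19 ± 0.48), and Ccnd1 (1.303 ± 0.32), Ccnd2 (1.83 ± 0.30), Ccnd3 (1.97 ± 0.29), Cdk4 (0.99 ± 0.25), Cdkn2a (1.68 ± 0.34), Cdkn2b (1.92 ± 0.50), Cdkn2c (0.85 ± 0.28) and Cdkn1b (0.62 ± 0.23) were higher, while Rb1 was not called (0.12 ± 0.30). The Cdkn2c call was lost by DESeq2 (0.85, adjusted p = 0.149).

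Against astrocyte-like cells of 4 tumors, 7 of the 8 genes tested were called in non-cycling fusion-allele cells (background 20.6% of 8542 genes). Ccnd1 (2.59 ± 0.33 (SE), adjusted p = 6.04e-07), Cdkn2a (2.20 ± 0.36), Ccnd2 (1.89 ± 0.35), Cdk4 (1.76 ± 0.32) and Ccnd3 (1.62 ± 0.31) were higher in fusion-allele cells. Cdkn2c was higher and Rb1 lower by smaller margins (0.89 ± 0.30 (SE), adjusted p = 0.0292, and -0.81 ± 0.29 (SE), adjusted p = 0.0463). The Rb1 call was lost without any one of tumor replicates 1, 2, 3 and 5 (adjusted p = 0.0907, 0.108, 0.163 and 0.0793), and the Cdkn2c call without replicate 1 (0.63, adjusted p = 0.265), 2 (adjusted p = 0.0514) or 5 (adjusted p = 0.115). Scaled by library total neither was called (adjusted p = 0.0705 and 0.0626), nor by DESeq2 (adjusted p = 0.12 and 0.0959). Cdkn1b was not called (0.25 ± 0.28 (SE), adjusted p = 0.578). The fusion allele reached 38.3 to 247% of its free RNA level in these astrocyte-like cells, and the part of this in the comparison was not tested.

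The rest of the G1/S network was followed with 30 further genes. Over all cells 19 of the 30 were higher in tumors and 2 lower (background 61.6%), with Cdkn1a, the p53 target p21 (4.97), Cdkn1c, the p57 gene (6.18), and E2f8, an atypical repressor of the E2F family (5.45), among the largest. Cdkn1a was the one gene called higher in all 5 classes, by 4.01 in microglia-like, 4.61 in astrocyte-like, 3.88 in endothelial-like, 7.53 in oligodendrocyte-like and 2.25 in neuron-like cells. With it, 4 of 17 tested were higher in microglia-like cells (background 42.2%), 1 of 17 in astrocyte-like (29.6%), 2 of 14 in endothelial-like (26.2%), 5 of 10 in oligodendrocyte-like with 1 lower (48.0%), and 4 of 26 in neuron-like with 1 lower (17.9%). Between cycling and non-cycling fusion-allele cells 16 of 30 were higher and 0 lower (background 27.7%), led by the E2F target genes E2f7 (4.71), E2f8 (4.52), E2f1 (3.51) and Ccne2 (3.45). None of the 30 is in the gating lists, but the S-phase list holds other E2F targets. How far the way cells were called cycling builds in a rise of such genes was not tested. In the planned tumor cells of replicates 2 and 4 the counts were 17 higher and 1 lower, the latter Cdkn1c (-0.94), at a background of 26.4%. Non-cycling fusion-allele cells had more Cdkn1c than astrocyte-like (4.00) and microglia-like cells (3.17), within 3 higher and 1 lower of 18 tested (background 20.6%) and 7 higher and 6 lower of 26 (49.1%). Against microglia-like cells the planned tumor cells had 5 of 27 higher and 6 lower (39.2%).

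Across classes and mice Ccnd1 and Ccnd3 had like patterns, and Ccnd2 went apart. Over 52 sums of at least 50 cells, from 10 classes and 9 mice, log2(CPM + 10) of Ccnd1 correlated with that of Ccnd3 at r = 0.88 and with that of Ccnd2 at r = 0.21. The genes whose pattern was most like that of Ccnd1 were Ccnd3 (0.88), AI506816 (0.88) and Tmed9 (0.88). Those most like Ccnd3 were Ostc (0.91), Ddost (0.90) and Taf10 (0.89), and those most like Ccnd2 were Mex3a (0.90), Sox11 (0.89) and Gm17750 (0.81). The 52 sums share mice, libraries and depth, so these values describe the sums and carry no test.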

How the data were processed

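Droplet single-cell RNA-seq libraries of 5 tumors and 4 control brains were used. Per the labels and the study's methods, the authors aligned the reads to mm10 with Cell Ranger (7 in the processing notes, with Scanpy 1.8.2) and deposited whole UMI counts per gene and barcode, not normalized. The 10000 richest barcodes per library were taken, those with 200 to 6000 genes kept, the component with more mitochondrial UMIs of a 2-component mixture removed and Scrublet doublets left out. The mitochondrial cut differed between libraries. Removed barcodes stood at 3.68% and 4.84% in tumor replicates 4 and 5, while kept ones stood at 10.6% in tumor replicate 1. The mitochondrial shares given above are those left by this filter. Cells were clustered (scanpy 1.11.5, Leiden, resolution 1.0) and named from fixed marker lists, each cell also needing UMIs of 2 of its own markers. Counts were summed per class and mouse (at least 20 cells) and tested with edgeR 4.0.16 (quasi-likelihood, TMM, filterByExpr, Benjamini-Hochberg over all genes tested, threshold 0.05), with the mouse as a block between classes of the same mice. Cyclin shares were tested by exact two-sided permutation. Sparse levels rest on few UMIs. The tests were run on simulated counts with the same dispersion for every gene and no added difference between mice. That run does not show how they behave at the spread of these data. Alternatives were DESeq2 1.42.0, no low-count filter, other cell filters and clustering, left-out mice and, added after the data were seen, scaling by library total, removal of free RNA and the fusion-allele set with its comparisons. The 10 genes, their comparisons and all lists were chosen with earlier results of these data known. Every one of the 10 genes is named wherever it was tested. Of the 30 network genes, up to 4 per direction and comparison with the largest called differences could be named, and for each cyclin the 3 genes most correlated with it. Replicate numbers are names of mice and did not pair them. RefSeq promoter windows matched 7 of the 10 genes, not Ccnd1, Ccnd2 or Rb1.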

Additional observations from a re-analysis of the deposited data

Results flagged for a closer look

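In 5 of 137 groups of 4 or 5 mice, 1 mouse stood apart from the rest of its group by Dixon's criterion at the 95% level, which chance alone gives in about 1 of 20 groups. In tumor microglia-like cells Ccnd1 was at 280.5 CPM in replicate 4, with the next tumor at 162 CPM. Over all control cells Ccnd2 was at 131 CPM in replicate 1, with the next at 100.1 CPM. Cdk6 was at 11.6 CPM, from 6 UMIs, in OPC-like cells of tumor replicate 2, with the next at 1.76 CPM. Rb1 was at 88.4 CPM in neuron-like cells of tumor replicate 5, with the next at 39.1 CPM. Cdkn2c was at 197 CPM, from 29 UMIs, in cycling fusion-allele cells of tumor replicate 1, with the next at 99.2 CPM.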

How the results depend on the processing

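Of 62 calls on the 10 genes, 61 kept their sign and 32 stayed past the threshold in every alternative fitted. The precision is set by UMIs: several control levels in endothelial-like, OPC-like and oligodendrocyte-like cells rest on fewer than 20. Scaling by library total changed the split of all called genes: 52.2% of calls were higher in tumors by TMM and 21.2% by library total in microglia-like cells, 50.8% and 38.1% in endothelial-like, 48.9% and 34.5% in oligodendrocyte-like and 50.4% and 64.9% in neuron-like cells. Of the calls between cycling and non-cycling planned tumor cells, 54.7% and 40.6% were higher in cycling cells. Of the calls against microglia-like cells, 48.2% and 70.4% were higher in planned tumor cells and 52.4% and 71.4% in fusion-allele cells. The cause was not tested for any change given here. Where a count of the 10 genes below stands without the share of all genes called under the same alternative, it describes the alternative and is not a result about the 10.

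Replicate numbers shared between groups gave correlations of 0.0377, 0.0154, 0.0042 and 0.0479 between same-numbered mice, so they did not pair the mice. With the replicate block 1433 genes were called in astrocyte-like and 1003 in neuron-like cells and 0 of the 10 genes in oligodendrocyte-like cells. The same mice with no block gave 1526 genes in astrocyte-like cells and 0 of the 10 in oligodendrocyte-like cells. The block lost Ccnd1 in neuron-like cells and Cdkn1b in oligodendrocyte-like cells, gained Cdkn1b in microglia-like cells and left Ccnd2 at -0.39 in endothelial-like and -0.14 in oligodendrocyte-like cells (-0.36 in endothelial-like cells for the same mice with no block).

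With no replicate block for the mouse, 168 genes and 0 of the 10 were called between cycling and non-cycling planned tumor cells, 2502 and 2 between these and microglia-like cells, 539 and 0 between cycling and non-cycling fusion-allele cells, and 999 and 4 between fusion-allele and astrocyte-like cells. Rb1 was then at -0.038 in fusion-allele against microglia-like cells. DESeq2 called 985 genes and 2 of the 10 in cycling planned tumor cells, 3054 genes against microglia-like cells and 0 of the 10 in oligodendrocyte-like cells, and put Rb1 at -0.075 in fusion-allele against microglia-like cells. With no filter on low counts 9 of the 10 were called in astrocyte-like, 4 in oligodendrocyte-like and 5 in neuron-like cells, and Rb1 was at -0.0061 in fusion-allele against microglia-like cells.

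Scaled by library total, 0 of the 10 were called in oligodendrocyte-like cells and 3 between cycling and non-cycling fusion-allele cells, and Ccnd2 was at -0.028 in endothelial-like cells, 0.039 in neuron-like cells and -0.014 between cycling and non-cycling planned tumor cells. With free RNA taken off the tumor sums alone, which pushes down genes rich in it by construction, 1158 genes and 2 of the 10 were called in astrocyte-like and 0 of the 10 in neuron-like cells. Ccnd2 was then at -0.91 in microglia-like, -0.15 in astrocyte-like, -1.19 in endothelial-like and -1.04 in oligodendrocyte-like cells, Ccnd1 at -0.29 in oligodendrocyte-like and -1.60 in neuron-like cells, and Cdk4, Cdk6 and Cdkn1b at -0.054, -0.12 and -0.70 in neuron-like cells.

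The limit of 10% on mitochondrial UMIs called 2 of the 10 in oligodendrocyte-like cells and 3 in each cycling comparison, with Ccnd2 at 0.23 in neuron-like cells and Ccnd3 at 0.047 in cycling fusion-allele cells. With no doublets removed 0 of the 10 were called in oligodendrocyte-like cells, and 795 genes and 1 of the 10 in cycling fusion-allele cells, with Ccnd3 there at 0.13 and Ccnd2 at 0.032 in neuron-like cells. Leiden resolution 0.5 called 0 of the 10 in oligodendrocyte-like cells and 1018 genes and 0 of the 10 in neuron-like cells, with Cdk6 there at -1.06 and Rb1 at -0.00092 in fusion-allele against microglia-like cells. Resolution 2.0 called 0 of the 10 in oligodendrocyte-like cells, with Ccnd2 at 0.13 in neuron-like cells and Ccnd3 at 0.061 in cycling fusion-allele cells. Over all deposited barcodes Rb1 was at 0.43 between tumors and controls. At least 50 cells per sum called 1120 genes between fusion-allele and astrocyte-like cells. With no gate per cell Rb1 was at -0.017 in fusion-allele against microglia-like cells.

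In cells with an allele UMI alone, Ccnd2 was at -0.041 between cycling and non-cycling planned tumor cells and Rb1 at -0.023 (planned tumor cells) and -0.12 (fusion-allele cells) against microglia-like cells. Thinning cells to 2000 UMIs put Ccnd2 at -0.29 in planned and Ccnd1 at -0.20 in fusion-allele cells between cycling and non-cycling, and the G2/M list alone put Ccnd2 at -0.24 in planned tumor cells. The tumor-minus-control share of Ccnd1 was 4.00 points with no gate per cell in microglia-like cells, 0.27 and, at resolution 0.5, 4.52 points in astrocyte-like cells, and 7.43 points at resolution 0.5 in neuron-like cells.

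Leaving out 1 mouse at a time gave 1159 to 1700 called genes in endothelial-like, 1207 to 3431 in neuron-like, 1735 to 3576 in cycling fusion-allele cells and 1120 to 1508 against astrocyte-like cells. Of the 10 genes 0 to 3 were called in oligodendrocyte-like and 3 to 4 in cycling fusion-allele cells. Ccnd2 ranged from -0.36 to 0.29 in endothelial-like, from -0.64 to 0.92 in oligodendrocyte-like and from -0.39 to 0.12 in neuron-like cells, Ccnd1 from -0.20 to 1.50 in oligodendrocyte-like cells, Ccnd3 from -0.13 to 0.010 in cycling fusion-allele cells and Rb1 from -0.23 to 0.14 against microglia-like cells. The Ccnd1 share ranged over 11.6 to 18.4 points in all cells, -6.52 to 0.98 in microglia-like, -2.63 to 2.10 in astrocyte-like, 26.8 to 33.1 in endothelial-like cells and -0.87 to 5.52 between cycling and non-cycling cells.

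Not run or without a value were the planned non-cycling tumor cells against astrocyte-like cells, left-out mice in the comparisons of planned tumor cells, astrocyte-like and endothelial-like cells at the 10% mitochondrial limit, and endothelial-like and oligodendrocyte-like cells at 50 cells per sum.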
